A study of Mus musculus with 18 samples.

Results

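Genes of brain endothelium are described here, namely *Cldn5*, *Pecam1*, *Cdh5*, *Flt1*, *Kdr*, *Tek*, *Slco1c1*, *Mfsd2a*, *Slc2a1* and *Abcb1a*, which are 10 of the 55153 genes of the RNA-seq table and of the 54838 genes of the Ribo-seq table. Their rows were found by symbol, and all 10 had a value in every library of both tables. The names were chosen from earlier results of these same libraries, among them the fall of *Slco1c1* in *M*-cKO Ribo-seq, and which other values were used is not recorded. The levels and fold changes are therefore given as a description, and an adjusted *P* beside them is the output of the fit over all genes, not independent evidence. The group is called brain endothelium genes for their known site of expression, and whether each transcript came from endothelium was not measured in this bulk tissue.

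The study profiled E15.5 mouse cerebral cortex by RNA-seq and by Ribo-seq, which sequences the fragments of mRNA that ribosomes protect. Control mice (Ctrl) were wild type. *F*-cKO mice were Fto(f/f, Emx1-cre) and *M*-cKO mice were Mettl3(f/f, Emx1-cre), so that the RNA m6A demethylase Fto or the m6A methyltransferase Mettl3 was lost where Cre was made from the *Emx1* promoter. The labels give the strain as C57BL/6, and the methods give a mixed C57/BL6 and 129 background for the floxed lines. Each group had 3 libraries in each assay, 18 in all, and the wild-type controls did not carry Cre as far as the labels say. The *Emx1* promoter drives Cre in the neural lineage of the dorsal telencephalon, and endothelial cells arise outside this lineage and enter the cortex with its vessels. The labels call the libraries biological repeats, and do not say whether they came from separate litters. For Ribo-seq the methods speak of cortical samples from "1 L", which may mean 1 litter, so that *P* values measure the spread between these libraries.

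Endothelial cells of the brain form a tight barrier between blood and neural tissue. They join to each other by adherens and tight junctions, take up glucose, lipids and hormones through dedicated transporters, and pump many other molecules back into the blood. They grow into the embryonic cortex in response to VEGF, angiopoietin and Wnt ligands, many of which are made by neural progenitors.

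The RNA-seq libraries held from 18504094 to 22592406 counted reads, and the Ribo-seq libraries from 10973699 to 35853227. The Ribo-seq library with the fewest reads was *F*-cKO replicate 2, which stands apart from the other 8 Ribo-seq libraries for these genes, and the Ribo-seq fits and TE of these genes in *F*-cKO are given with and without it. All 10 transcription factors and other markers of cortical neurons and their progenitors on the list used for the tissue, among them *Emx1* and *Tbr1*, were above 0 in every library. *Fto* was at 10.8, 11.2 and 8.37 FPKM in the Ctrl RNA-seq libraries and at 3.26, 7.56 and 2.43 FPKM in the *F*-cKO libraries, and its Ribo-seq level was 21.8 ± 4.15 RPKM in Ctrl and 3.35 ± 1.08 RPKM in *F*-cKO (SD, n = 3), or 3.97 ± 0.0932 RPKM without replicate 2 (SD, n = 2). *Mettl3* went against the label in RNA-seq, at 5.84, 6.43 and 5.07 FPKM in Ctrl and 8.61, 7.82 and 8.34 FPKM in the libraries labelled *M*-cKO. In Ribo-seq it was lower in the libraries labelled *M*-cKO, at 6.40 ± 0.381 RPKM compared with 9.45 ± 0.42 RPKM in Ctrl (SD, n = 3). Reads over the whole gene include exons that the deletion leaves in place, so these totals check the labels only in part. The study also reported raised *Mettl3* RNA with lowered footprints, and proposed that its knockout strategy might be the reason. Its RT-PCR found the targeted exons deleted in embryonic *M*-cKO cortex. Directions in *M*-cKO are those of the libraries labelled so.

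The regulatory sequence of the 2 genes that fell in *F*-cKO RNA-seq is shown first. *Slco1c1* (ENSMUSG00000030235) lies on chromosome 6 from 141524354 to 141570177 and *Cldn5* (ENSMUSG00000041378) on chromosome 16 from 18776847 to 18778262 in RefSeq for GRCm38.p6, which is the mm10 build named in the submitters' processing notes. The 250 bases before the RefSeq start, both on the + strand and 5′ to 3′, are chr6:141524104-141524353 and chr16:18776597-18776846. Capitals mark AGGAAG, the letters searched on both strands as a form of the sites for ETS factors, which many endothelial genes carry. On the opposite strand this reads CTTCCT. Shorter or other forms of these sites were not searched.
Slco1c1: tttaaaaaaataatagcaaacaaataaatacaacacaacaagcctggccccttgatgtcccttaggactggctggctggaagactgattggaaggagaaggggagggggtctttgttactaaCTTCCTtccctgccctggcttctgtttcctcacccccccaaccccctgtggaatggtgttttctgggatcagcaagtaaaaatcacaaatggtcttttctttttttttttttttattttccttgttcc
Cldn5: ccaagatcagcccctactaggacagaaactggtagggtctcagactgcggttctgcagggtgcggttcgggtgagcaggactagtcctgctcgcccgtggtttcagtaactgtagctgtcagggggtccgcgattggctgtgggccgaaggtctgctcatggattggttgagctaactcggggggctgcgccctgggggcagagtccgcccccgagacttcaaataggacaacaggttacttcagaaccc
The *Slco1c1* window holds the letters once, on the opposite strand, beginning 128 bases before the start, and the *Cldn5* window does not hold them. RefSeq promoter entries matched 8 of the 10 genes, and 3 of these 8 windows hold the letters (*Flt1*, *Slco1c1* and *Abcb1a*), compared with 29.5% of all 32851 promoter windows of the same length. The starts used for *Flt1*, *Kdr*, *Tek* and *Mfsd2a* lie inside the span of the gene, so that their windows may overlap transcribed bases. The bases of the *Slco1c1* window are 42.8% G or C and those of *Cldn5* 59.6%, and the median of all windows is 52.4%.

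In Ctrl cortex the 10 genes spanned a wide range of RNA levels on the per-length scale (FPKM, fragments scaled to gene length and library size). *Cldn5*, the main claudin of the barrier's tight junctions, was the most abundant at 37.6 ± 2.42 FPKM (SD, n = 3, as for the levels below). The transporters *Slc2a1*, the glucose carrier of the barrier, *Mfsd2a*, which carries lipids and limits vesicle transport across the cell, and *Slco1c1*, a carrier of thyroid hormone, followed at 18.3 ± 1.27, 10.1 ± 0.422 and 8.50 ± 2.16 FPKM. *Cdh5*, the cadherin of endothelial adherens junctions, was at 4.34 ± 0.87 FPKM and *Pecam1*, an adhesion protein at endothelial contacts, at 2.49 ± 0.0866 FPKM. Of the receptors, *Kdr*, which transmits VEGF signals, was at 3.54 ± 0.23 FPKM. *Tek*, the angiopoietin receptor, was at 1.75 ± 0.154 FPKM, and *Flt1*, a VEGF receptor that largely acts as a trap for the ligand, at 1.41 ± 0.237 FPKM. *Abcb1a*, the drug efflux pump, was the lowest at 0.856 ± 0.143 FPKM. Neighbours in this order whose Ctrl libraries overlapped were *Mfsd2a* and *Slco1c1*, *Cdh5* and *Kdr*, and *Tek* and *Flt1*, and the other neighbours were apart in every Ctrl library.

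**Figure D1:**
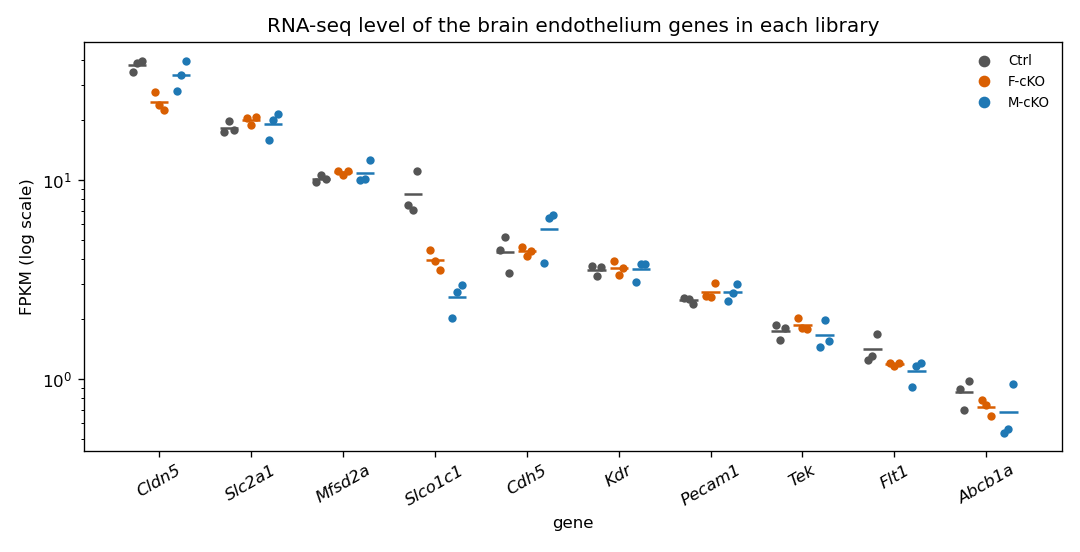
RNA-seq level (FPKM, log axis) of the 10 brain endothelium genes in each of the 9 libraries, with each library as a point and the group mean as a bar. *Slco1c1* is lower in the 6 knockout libraries than in the 3 Ctrl libraries, and *Cldn5* is lower in the 3 *F*-cKO libraries than in Ctrl.

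Of the 10 genes, 2 were called lower in *F*-cKO RNA-seq and none higher, where 9.57% of the 16944 genes tested were called lower and 11.5% higher. A gene was called at an adjusted *P* below 0.05 (edgeR's quasi-likelihood test, Benjamini-Hochberg over all genes tested). *Cldn5* was at 34.8, 38.5 and 39.4 FPKM in the Ctrl libraries and at 27.5, 23.6 and 22.4 FPKM in the *F*-cKO libraries. Every *F*-cKO library was below every Ctrl library. Its log2 fold change was -0.63 ± 0.09 (SE), which is 1.55-fold lower (edgeR adjusted *P* = 0.00389). *Slco1c1* was at 7.46, 7.05 and 11.0 FPKM in Ctrl and at 4.44, 3.89 and 3.51 FPKM in *F*-cKO. Ctrl replicate 3 was the highest of the 6 libraries, and again the groups did not overlap. Its log2 fold change was -1.11 ± 0.16 (SE), which is 2.17-fold lower (edgeR adjusted *P* = 0.00396).

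The other 8 genes had log2 fold changes between -0.25 and 0.13 in *F*-cKO and were not called. The junction genes *Cdh5* and *Pecam1* had log2 fold changes of 0.00 ± 0.14 and 0.13 ± 0.10. Of the receptors, *Kdr* and *Tek* were at 0.02 ± 0.09 and 0.09 ± 0.13 and *Flt1* at -0.25 ± 0.12. The transporters *Mfsd2a* and *Slc2a1* were at 0.10 ± 0.08 and 0.12 ± 0.07 and the pump *Abcb1a* at -0.25 ± 0.19. The 3 *F*-cKO libraries lay wholly above or below the Ctrl libraries for 5 of the 10 genes, which were *Cldn5*, *Flt1* and *Slco1c1* below and *Pecam1* and *Mfsd2a* above. Among all genes tested this was so for 41.7%. The median log2 fold change of the 10 genes was 0.01, compared with -0.01 over all genes.

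In *M*-cKO RNA-seq 1 of the 10 genes was called lower and none higher, where 14.1% of the 16968 genes tested were called lower and 15.5% higher. The gene was *Slco1c1*, at 2.03, 2.73 and 2.95 FPKM in *M*-cKO, all below the lowest Ctrl library at 7.05 FPKM. The log2 fold change was -1.73 ± 0.18 (SE), which is 3.32-fold lower (edgeR adjusted *P* = 8.03e-05). *Flt1* was at 0.917, 1.16 and 1.20 FPKM in *M*-cKO and at 1.25, 1.30 and 1.68 FPKM in Ctrl. These groups did not overlap, but the log2 fold change of -0.38 ± 0.14 (SE) was not called (edgeR adjusted *P* = 0.0689). Without the filter on low counts *Flt1* was at -0.35 and was called (edgeR adjusted *P* = 0.0245). With replicate number as a block in the fit it was at -0.37 and was also called (edgeR adjusted *P* = 0.0369). *Flt1* and *Slco1c1* were the 2 of the 10 genes whose libraries did not overlap between *M*-cKO and Ctrl, as was so for 44.7% of all genes tested.

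The other members lay close to Ctrl or varied within *M*-cKO. *Cdh5* was at 3.82, 6.43 and 6.68 FPKM in the *M*-cKO libraries and at 4.44, 5.15 and 3.42 FPKM in Ctrl, with a log2 fold change of 0.37 ± 0.20 (SE). *M*-cKO replicate 1 was the low library here, and without it the log2 fold change was 0.59 ± 0.15 and was called (edgeR adjusted *P* = 0.0132). Without the filter on low counts *Cdh5* was at 0.39 and was also called (edgeR adjusted *P* = 0.00466). *Cldn5* was at 27.9, 33.4 and 39.2 FPKM and *Abcb1a* at 0.539, 0.560 and 0.949 FPKM in *M*-cKO, with replicate 3 the highest of both. Without replicate 3 their log2 fold changes moved from -0.17 to -0.29 and from -0.33 to -0.64 and were called (edgeR adjusted *P* = 0.0471 and 0.0496). *Pecam1*, *Kdr*, *Tek*, *Mfsd2a* and *Slc2a1* had log2 fold changes between -0.09 and 0.12 and overlapped Ctrl. The median of the 10 genes was -0.05, compared with -0.01 over all genes.

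The 2 knockouts were also compared with each other, without the Ctrl libraries that both comparisons above share. *Cldn5* and *Slco1c1* were the 2 of the 10 genes called between *M*-cKO and *F*-cKO RNA-seq, where 27.4% of the 16802 genes tested were called in either direction. *Cldn5* was higher in *M*-cKO, by 0.44 ± 0.12 on the log2 scale (SE; edgeR adjusted *P* = 0.0217). Its call was lost without *F*-cKO replicate 2, *M*-cKO replicate 2 or *M*-cKO replicate 3, with log2 fold changes of 0.43, 0.46 and 0.33. It was also lost with replicate number as a block in the fit, at 0.44. *Slco1c1* was lower in *M*-cKO than in *F*-cKO, with a log2 fold change of -0.63 ± 0.15 (SE; edgeR adjusted *P* = 0.0112). *Cdh5* had a log2 fold change of 0.36, and it was called without *M*-cKO replicate 1, at 0.59, and without the filter on low counts, at 0.37.

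**Figure D2:**
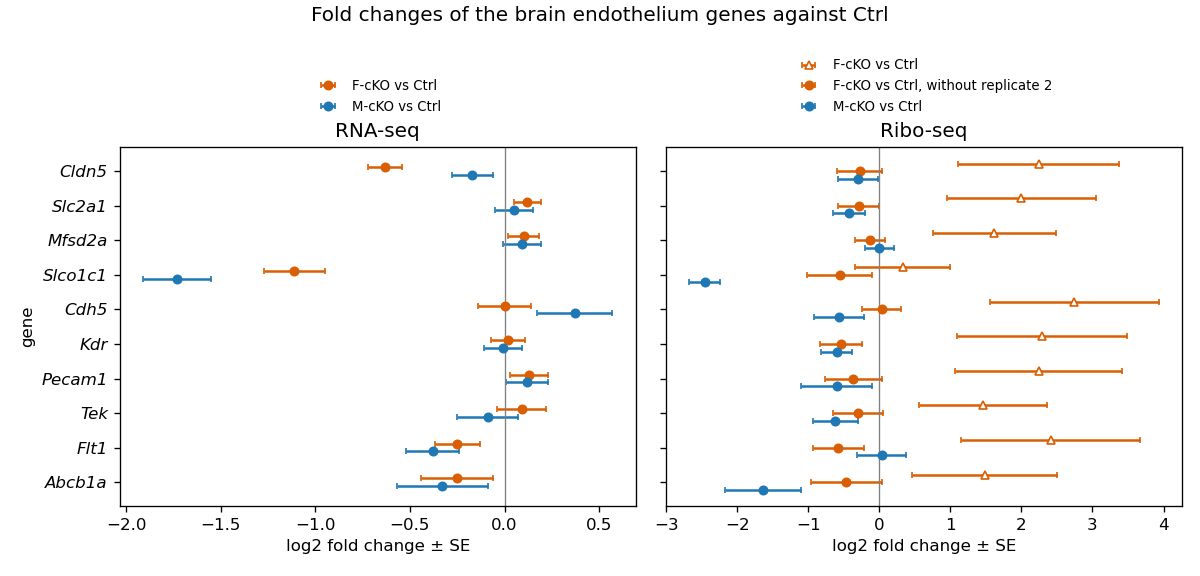
Log2 fold change against Ctrl with its standard error (SE) for each gene in RNA-seq (left) and Ribo-seq (right), from edgeR fits over 3 against 3 libraries, or 2 against 3 for *F*-cKO without replicate 2. In RNA-seq *Slco1c1* and, in *F*-cKO, *Cldn5* lie to the left, and in Ribo-seq the *F*-cKO values move from between 0.33 and 2.74 to between -0.58 and 0.03 when replicate 2 is left out.

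In bulk tissue, fewer cells of a type and less RNA per cell cannot be told apart, so the other genes of endothelial cells and the markers of neighbouring cell types were read beside these values. Of 29 other endothelial genes tested, 5 were called lower and 0 higher in *F*-cKO RNA-seq, with a median log2 fold change of -0.24, where 9.57% and 11.5% of all genes were. *Itm2a*, a membrane protein enriched in brain vessels, *Esam*, a junction protein, and *Egfl7*, a secreted protein of vessels, were 1.46-fold, 1.48-fold and 1.45-fold lower (edgeR adjusted *P* = 0.00788, 0.00839 and 0.00966). In *M*-cKO 1 of the 29 was called higher and 1 lower, with a median of -0.11, which is below the 15.5% and 14.1% of all genes. These were *S1pr1*, a sphingosine phosphate receptor, at a log2 fold change of 0.51 ± 0.09, and *Ly6c1* at -1.12 ± 0.33 (SE). Several of these genes are also expressed outside the endothelium.

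Genes of the barrier other than the 10 were read next. In *F*-cKO 2 of 23 were called higher and 3 lower in RNA-seq, with a median of -0.01, and in *M*-cKO 5 were called higher and 2 lower, with a median of 0.12. Of all genes tested, 11.5% were called higher and 9.57% lower in the first comparison and 15.5% and 14.1% in the second, so nothing is read from these counts about the barrier genes as a group. *Cav1*, the coat protein of caveolae, was 1.40-fold lower in *F*-cKO and 1.93-fold lower in *M*-cKO RNA-seq. *Bsg*, a glycoprotein that carries lactate transporters to the membrane, was 1.36-fold and 1.27-fold lower. *Tjp1*, a scaffold protein of tight junctions that neural progenitors also make, was 1.34-fold higher in *F*-cKO. *Apcdd1*, an inhibitor of Wnt signalling, was 1.26-fold higher in *F*-cKO and 1.42-fold higher in *M*-cKO. In *M*-cKO *Slc7a5*, an amino acid transporter, was 1.26-fold higher.

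Signals to vessels came next. Of 27 ligands, receptors and modulators, 3 were called higher and 3 lower in *F*-cKO RNA-seq, and 3 higher and 2 lower in *M*-cKO. These counts are near or below the shares of all genes called, which were 11.5% higher and 9.57% lower in *F*-cKO and 15.5% and 14.1% in *M*-cKO, so they are no result about these genes as a group. *Vegfa*, the ligand of *Kdr* and *Flt1*, was 1.40-fold lower in *M*-cKO (edgeR adjusted *P* = 0.00138), and *Nrp1*, a VEGF co-receptor that axons also carry, was 1.47-fold lower. *Vegfb*, a ligand of *Flt1*, was 1.37-fold lower and *Ndp*, a ligand of Wnt receptors on vessels, 1.51-fold lower in *F*-cKO. *Wnt7b* was 1.35-fold higher in *F*-cKO and *Wnt7a* 1.31-fold higher in *M*-cKO, which are ligands made by neural progenitors. *Notch1*, a receptor of progenitors and vessels, was 1.89-fold higher in *F*-cKO and 1.79-fold higher in *M*-cKO, and *Lrp5*, a Wnt co-receptor, 1.32-fold and 1.29-fold higher. The chemokine receptor gene *Cxcr4* was 1.22-fold lower in *F*-cKO. Among 13 targets of low oxygen signalling tested, 2 were called higher and 3 lower in *F*-cKO, and 1 higher and 3 lower in *M*-cKO. *Hk2*, a hexokinase, was 1.83-fold higher in *F*-cKO and 1.70-fold higher in *M*-cKO, and *Egln3*, an oxygen sensor, 1.28-fold and 1.39-fold lower.

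Markers of some other cell types also changed, in 1 knockout or in both. Their part in the falls of *Cldn5* and *Slco1c1* was not tested. Of 12 astroglial genes, 9 were called lower and 0 higher in *F*-cKO RNA-seq, and their summed level was between 1052 and 1157 counts scaled to library size (CPM) compared with between 1430 and 1631 CPM in Ctrl. In *M*-cKO 8 were called lower and 2 higher, at between 855 and 949 CPM. The shares of all genes tested were 9.57% lower and 11.5% higher in *F*-cKO, and 14.1% and 15.5% in *M*-cKO. *Gfap*, the intermediate filament of astroglia, was 7.02-fold lower in *F*-cKO and 11.46-fold lower in *M*-cKO. Of 12 mural cell genes tested, which mark pericytes and vascular smooth muscle, 7 were called lower and 1 higher in *F*-cKO. The summed level of all 14 mural genes listed was between 173 and 180 CPM compared with between 200 and 215 CPM in Ctrl. The pericyte markers *Vtn*, *Rgs5* and *Higd1b* were 1.92-fold, 1.32-fold and 1.83-fold lower, and *Notch3*, a receptor of mural cells and progenitors, was 1.53-fold higher. In *M*-cKO 1 of 13 mural genes was called higher (*Notch3*) and 1 lower (*Rgs5*), and the sum over all 14 was between 189 and 226 CPM.

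Of 11 meningeal fibroblast genes 7 were called lower and 0 higher in *F*-cKO, where 9.57% and 11.5% of all genes were. The summed level of the 11 was between 56.4 and 120 CPM compared with between 170 and 341 CPM in Ctrl. *Ptgds*, a prostaglandin synthase of the meninges, was 9.29-fold lower. In *M*-cKO none of the 11 was called, and the summed level was 80.4 CPM in replicate 1 and 301 and 377 CPM in replicates 2 and 3. The same replicate had the lowest sum over the 10 brain endothelium genes, at 210 CPM compared with 265 and 283 CPM. None of 12 microglial genes was called in either knockout. Choroid plexus genes varied between 103 and 1061 CPM among the Ctrl libraries, with 0 of 8 called in *F*-cKO and 1 of 9 higher in *M*-cKO. Of 9 red blood cell genes, 2 were called higher in both knockouts and 1 lower in *F*-cKO, and both that rose were the embryonic globins *Hbb-y* and *Hba-x*. None of the astroglial, mural or meningeal genes was at 0 in any RNA-seq library. Of 10 cortical neuron and progenitor genes 5 were called higher in each knockout and 1 lower in *M*-cKO. The shares of all genes in *M*-cKO were 14.1% lower and 15.5% higher.

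The paralogs of the members were not called in RNA-seq. *Slco1a4*, another organic anion carrier of brain endothelium, was at 0.248 ± 0.118 FPKM in Ctrl, 0.347 ± 0.126 FPKM in *F*-cKO and 0.312 ± 0.066 FPKM in *M*-cKO (SD, n = 3). These levels overlapped and rest on between 16 and 62 reads per library. In Ribo-seq it had 6, 14 and 15 reads in the Ctrl libraries, 3, 1 and 7 in the *M*-cKO libraries, and 1, 38 and 2 in those of *F*-cKO, too few to read a direction. *Abcb1b*, a close copy of *Abcb1a* that can share reads with it, was at 0.0824 ± 0.0256 FPKM in Ctrl, too low for its log2 fold changes of 0.15 and 0.13 to be read. *Flt4*, another VEGF receptor, had log2 fold changes of -0.15 ± 0.19 in *F*-cKO and 0.14 ± 0.18 in *M*-cKO (SE) and was not called.

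Ribo-seq measured the same genes on ribosomes, on a per-length scale of its own (RPKM, reads scaled in the same way). In Ctrl *Slc2a1* was at 4.22 ± 1.18, *Cldn5* at 4.17 ± 1.22, *Mfsd2a* at 2.75 ± 0.287 and *Slco1c1* at 2.38 ± 0.515 RPKM (SD, n = 3, as for the levels below). The Ctrl libraries of neighbours among these 4 overlapped, and *Slco1c1* was apart from the next gene, *Cdh5*. *Cdh5* and *Kdr* followed at 1.22 ± 0.136 and 0.988 ± 0.229 RPKM and overlapped each other. *Tek* was at 0.475 ± 0.125 RPKM. *Pecam1*, *Abcb1a* and *Flt1* were lowest at 0.248 ± 0.0764, 0.245 ± 0.0841 and 0.225 ± 0.0713 RPKM, with overlapping libraries.

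Replicate 2 of *F*-cKO held far more footprints of these genes than any other Ribo-seq library. All 10 were above the other 8 libraries in CPM, as were 28.2% of the 13460 genes with a mean of at least 1 CPM in Ctrl. *Cdh5* was at 75.0 CPM in this library, compared with between 1.43 and 5.28 CPM in the other 8, which is 14.20 times the highest of them. *Kdr* was at 96.3 CPM, 10.86 times the highest other library at 8.87 CPM. *Cldn5* was at 60.5 CPM, 10.38 times the highest other at 5.83 CPM. *Slco1c1* stood apart least, at 24.4 CPM and 2.01 times the highest other library at 12.2 CPM, which was a Ctrl library. The remaining genes were between 5.32 times (*Tek*) and 9.98 times (*Flt1*) the highest other library.

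The RNA-seq library labelled *F*-cKO replicate 2 did not stand apart in this way. The level of the 10 genes there was between 0.68 times (*Cldn5*) and 1.01 times (*Mfsd2a*) the median of the other 8 RNA-seq libraries. The same number does not show that both libraries came from the same tissue.

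**Figure D3:**
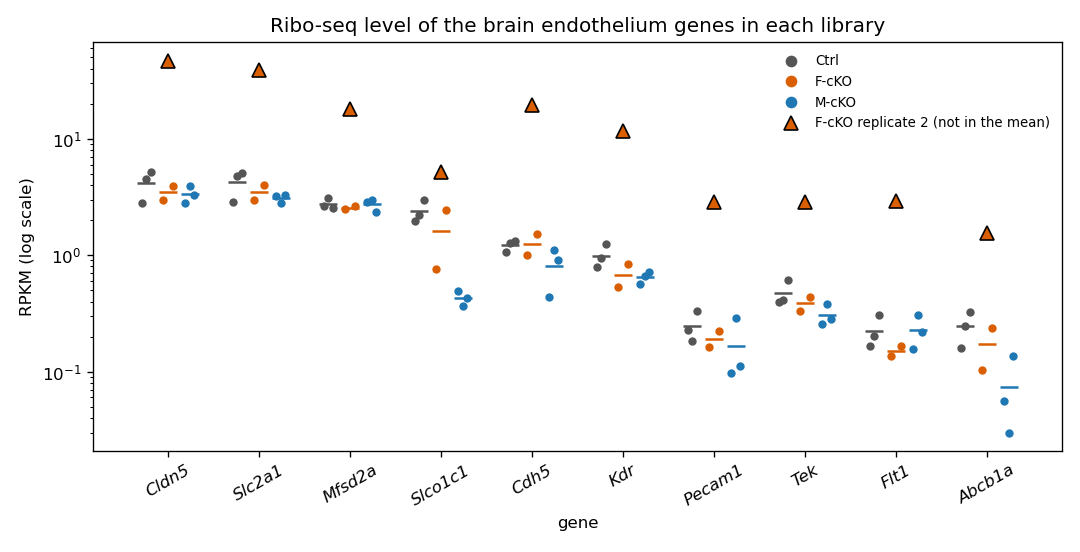
Ribo-seq level (RPKM, log axis) of the 10 brain endothelium genes in each of the 9 libraries, with group means as bars and *F*-cKO replicate 2 as a triangle that is left out of the mean. The triangle lies above all other points of every gene, by the least for *Slco1c1*, and the 3 *M*-cKO points of *Slco1c1* lie below all others of that gene.

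Genes of other kinds were high in the same library. These lists were made after the values were seen and carry no test. A ratio over 2-fold above the Ctrl mean was found for 18.6% of 13440 genes in this library. It was found for all 10 brain endothelium genes, with a median log2 ratio of 3.50, and for all 10 of a further list of endothelial surface proteins, with a median of 2.69. *Cd93*, a surface glycoprotein, was at 44.5 CPM compared with a highest other level of 4.69 CPM, and *Tie1*, a relative of *Tek*, at 18.7 CPM compared with 2.70 CPM. Of 7 nuclear regulators of endothelial cells, 0 were over 2-fold, with a median of -0.37. *Erg*, an ETS factor of endothelium, was at 4.01 CPM, between the lowest and highest of the other libraries at 2.71 and 5.35 CPM, and *Sox18* was at 3.01 CPM, below the lowest other at 5.38 CPM. Surface proteins of neurons were high as well, with all 12 over 2-fold and a median of 2.30, and the 10 markers of cortical neurons and progenitors, which are mostly transcription factors, had a median of -0.20. *Cntn2*, a neuronal adhesion protein, was at 958 CPM compared with 119 CPM in the highest other library. The median over mural genes was 1.69, over microglial genes 1.80, over meningeal genes 1.13 and over astroglial genes 0.65.

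**Figure D4:**
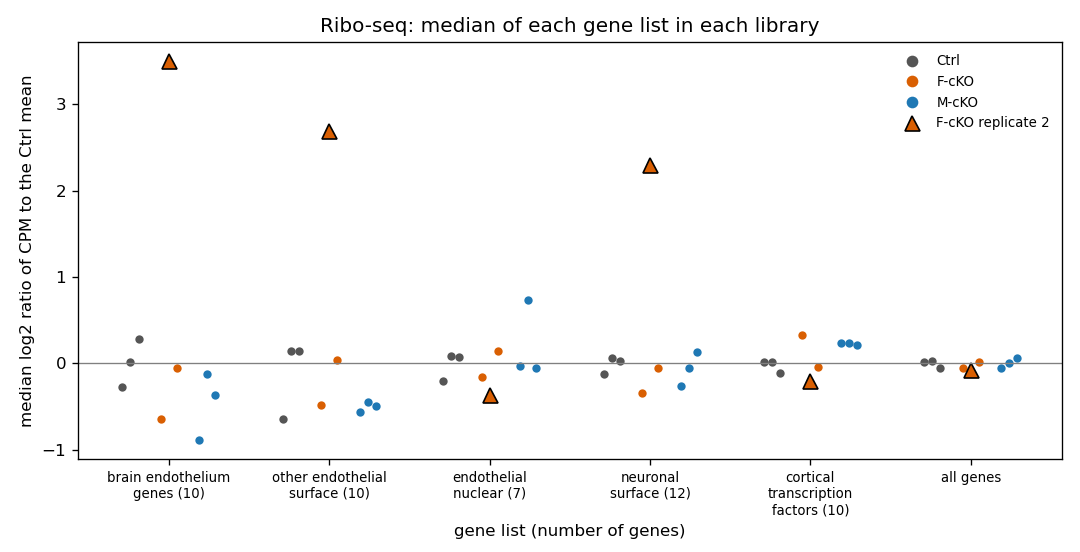
Median log2 ratio of CPM to the Ctrl mean for each gene list, in each of the 9 Ribo-seq libraries, with *F*-cKO replicate 2 as a triangle and all genes at the right. In this library the brain endothelium genes (3.50), other endothelial surface proteins (2.69) and neuronal surface proteins (2.30) lie far above 0, and nuclear regulators of endothelium (-0.37) and cortical transcription factors (-0.20) do not.

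With all 3 libraries, the Ribo-seq log2 fold changes of the 10 genes in *F*-cKO were between 0.33 (*Slco1c1*) and 2.74 (*Cdh5*), with a median of 2.12. None was called (lowest edgeR adjusted *P* = 0.73), and neither was any other of the 14335 genes tested (0%), of which 227 were higher and 91 lower at an unadjusted *P* below 0.05. DESeq2 gave an adjusted *P* for 3 of the 10, between 0.766 and 0.878, and none for the other 7. Without replicate 2, 9 of the 10 fold changes were below 0, between -0.58 (*Flt1*) and 0.03 (*Cdh5*), with a median of -0.34. None of the 10 was called (lowest edgeR adjusted *P* = 0.875), where 1 of 14336 genes was (0.00698%). Replicates 1 and 3, on which these values rest, differed. The median log2 ratio of CPM to the Ctrl mean over the 10 genes was -0.64 in replicate 1 and -0.05 in replicate 3. *Cldn5* was at 2.98 and 3.95 RPKM in them, between the lowest and highest Ctrl libraries at 2.83 and 5.18 RPKM. *Slco1c1* was at 0.766 RPKM in replicate 1 and 2.45 RPKM in replicate 3, and thus below the Ctrl libraries in the first and within their range of 1.96 to 2.95 RPKM in the second. *Gfap* differed between the same libraries in the same direction, at 0.568 RPKM in replicate 1 and 3.77 RPKM in replicate 3. With all libraries or without *F*-cKO replicate 2, none of the 10 genes was called between *M*-cKO and *F*-cKO in Ribo-seq. Of all genes 0% and 0.035% were called in these comparisons. With replicate 2, DESeq2 called *Slco1c1*, with a log2 fold change of -2.78 (DESeq2 adjusted *P* = 0.0102). The log2 fold change of *Slco1c1* was -2.77 ± 0.73 with replicate 2 and -1.87 ± 0.50 without it (SE).

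In *M*-cKO Ribo-seq 1 of the 10 genes was called, *Slco1c1*, where 7.5% of the 14314 genes tested were called lower and 7.13% higher. It was at 0.492, 0.365 and 0.429 RPKM in *M*-cKO and at 1.96, 2.23 and 2.95 RPKM in Ctrl, which rest on between 23 and 42 reads and between 291 and 384 reads per library. The groups were far apart, with a log2 fold change of -2.46 ± 0.22 (SE), which is 5.49-fold lower. Since this fall was among the results that chose the gene, it is a description, and nothing is read from its call. In a fit of all 9 Ribo-seq libraries, which takes in the spread of *F*-cKO replicate 2, its log2 fold change was -2.44 and was not called. *Abcb1a* was at 0.0554, 0.0300 and 0.135 RPKM in *M*-cKO and at 0.160, 0.246 and 0.328 RPKM in Ctrl. Every *M*-cKO library was below every Ctrl library, but these levels rest on 5, 2 and 14 reads compared with 26, 34 and 45. The log2 fold change of -1.64 ± 0.53 (SE) was not called (edgeR adjusted *P* = 0.0741), and without *M*-cKO replicate 3 it was -2.42 and was called (edgeR adjusted *P* = 0.0319).

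*Kdr* was at 0.571, 0.656 and 0.710 RPKM in *M*-cKO and at 0.786, 0.941 and 1.24 RPKM in Ctrl, again without overlap. Its log2 fold change of -0.60 ± 0.22 (SE) was not called (edgeR adjusted *P* = 0.102). *Slco1c1*, *Abcb1a* and *Kdr* were the 3 of the 10 genes without overlap, which was so for 39% of all genes tested. The other 7 had log2 fold changes between -0.62 (*Tek*) and 0.03 (*Flt1*) and were not called. *Cdh5*, at 0.433, 1.10 and 0.907 RPKM in *M*-cKO, had a log2 fold change of -0.57 ± 0.35 (SE) in Ribo-seq, compared with 0.37 ± 0.20 in RNA-seq. *Mfsd2a* was at 2.73 ± 0.326 RPKM in *M*-cKO and 2.75 ± 0.287 RPKM in Ctrl. The median of the 10 genes was -0.58, compared with -0.00 over all genes. It was -0.35 for the other endothelial genes, -0.67 for meningeal, -0.22 for mural and -0.14 for microglial genes. For cortical neuron and progenitor genes it was 0.26. Among the *M*-cKO libraries, replicate 1 had the lowest summed level of the 10 genes (27.9 CPM) and of the meningeal genes (25.3 CPM). Among the other barrier genes 2 of 21 were called lower and none higher, *Cav1* at a log2 fold change of -1.45 ± 0.17 and the amino acid transporter *Slc7a1* at -0.65 ± 0.15 (SE). Of 12 astroglial genes 5 were called lower and none higher, where 7.5% and 7.13% of all genes were. *Gfap* was 6.17-fold lower. The summed level of the astroglial genes was between 876 and 1135 CPM in *M*-cKO and between 1750 and 2003 CPM in Ctrl. The part of these cells in the fall of *Slco1c1* was not tested.

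Translational efficiency (TE) asks how much of a gene's RNA is on ribosomes. As a level it is the mean RPKM over the mean FPKM, and its value depends on how each assay was scaled. In Ctrl the 10 genes were between 0.0997 (*Pecam1*) and 0.286 (*Abcb1a*), with a median of 0.272, compared with a median of 0.856 over 11252 protein-coding genes with at least 1 FPKM. *Cldn5* was at 0.111, which is higher than 3.99% of these genes. *Slco1c1*, *Cdh5*, *Kdr*, *Tek* and *Mfsd2a* were alike, between 0.272 and 0.281. The other endothelial surface proteins had a median of 0.185 over 9 genes, between 0.110 (*Cd34*) and 0.271 (*Esam*). Neuronal surface proteins had a median of 0.388 over 12 genes, with a wide range from 0.120 (*Cntn2*) to 2.00 (*Dcc*). The nuclear regulators of endothelial cells had a median of 1.05 over 6 genes, from 0.301 (*Sox17*) to 2.47 (*Ets1*), so that the ranges of these lists overlap. With replicate 2 the median of the 10 genes in *F*-cKO was 0.744, and without the Ribo-seq library of that number it was 0.198. In *M*-cKO it was 0.165.

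**Figure D5:**
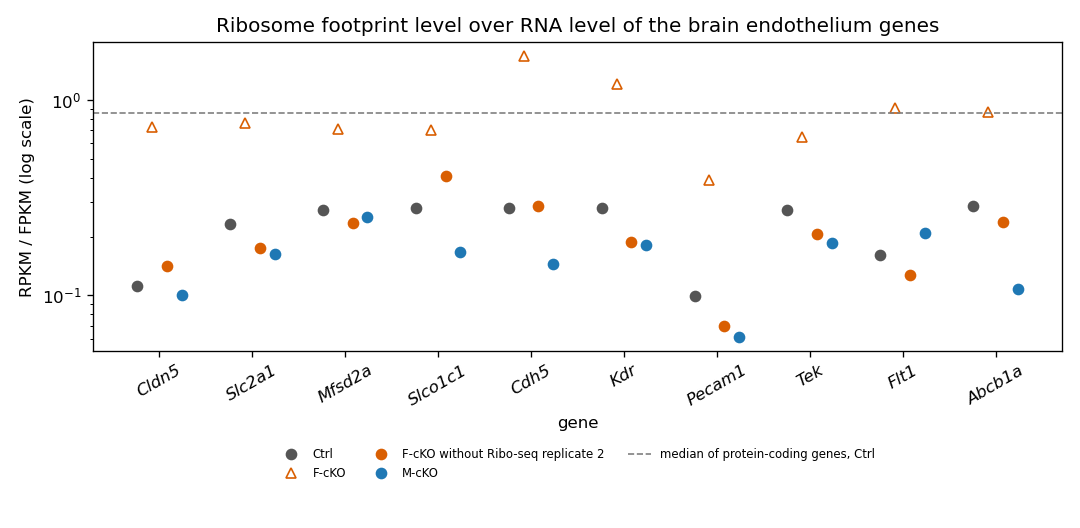
Mean Ribo-seq RPKM over mean RNA-seq FPKM of each gene (log axis) in Ctrl, in *M*-cKO, and in *F*-cKO with and without Ribo-seq replicate 2, with the Ctrl median of protein-coding genes as a dashed line at 0.856. Apart from *F*-cKO with replicate 2 (open triangles), all points lie below this line.

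None of the 10 genes was called for TE (interaction of assay and genotype, edgeR) in *F*-cKO or *M*-cKO, where 0% of 13225 genes and 3.07% of 13208 genes were called. In *F*-cKO, TE had an unadjusted *P* below 0.05 for 411 genes with a rise and 817 with a fall. In *F*-cKO the log2 changes in TE were between 1.32 (*Tek*) and 2.84 (*Cldn5*), with a lowest edgeR adjusted *P* of 0.53. Without Ribo-seq replicate 2 they were between -0.55 (*Kdr*) and 0.59 (*Slco1c1*), with a median of -0.26 and a lowest edgeR adjusted *P* of 0.411, where 0.00756% of all genes were called. In *M*-cKO *Abcb1a*, *Cdh5* and *Pecam1* had the lowest log2 changes at -1.21 ± 0.57, -0.89 ± 0.40 and -0.69 ± 0.43, and *Slco1c1* was at -0.65 ± 0.31 (SE; edgeR adjusted *P* between 0.221 and 0.373). When a library was left out, *Abcb1a* was between -2.03 and -0.90, *Cdh5* between -1.17 and -0.56 and *Pecam1* between -1.32 and -0.42. These ranges overlap. *Flt1* was the highest at 0.46 ± 0.36. An unadjusted *P* below 0.05 was found for 2 of the 10, *Cdh5* and *Kdr*, and for 2841 of all 13208 genes, so this count is near the background. The median was -0.49, compared with 0.02 over all genes.

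The genes whose pattern over libraries was most like the 10 genes differed between the assays. Likeness was Pearson's r of log2 CPM with the mean standardized profile of the 10 genes, among genes with a mean of at least 1 CPM, and the libraries share their depth and scaling. Over the 9 RNA-seq libraries the 5 most alike were *Ctsc* (0.90), *Cxcl12* (0.88), *Zfp366* (0.88), *Mtif3* (0.87) and *Bst2* (0.86). The members themselves were between 0.40 (*Slco1c1*) and 0.83 (*Kdr*), each with a profile that contains it. Over 8 Ribo-seq libraries, without *F*-cKO replicate 2, the 5 most alike were *Ocln* (0.97), *Scn3a* (0.96), *Slc12a2* (0.95), *Abi2* (0.95) and *Fbn2* (0.95), and the members with at least 1 CPM were between 0.31 (*Mfsd2a*) and 0.94 (*Tek*). *Ocln* encodes the tight junction protein occludin, and *Cxcl12* a chemokine of meninges and vessels. In a comparison added after its values were seen, the RNA-seq profiles most like that of *Slco1c1* alone were those of *Ptn*, *Tmem59l* and *Usp43* (0.99 each).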

How the data were processed

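RNA-seq and Ribo-seq were made from E15.5 cerebral cortex of control mice and both knockouts, 3 libraries per group and assay, grouped by the genotype in the labels. RNA-seq reads were aligned by the authors with HISAT2 2.0.5, and Ribo-seq reads with TopHat2 and counted with HTSeq, after cycloheximide, RNase I digestion and size selection. The gene counts were deposited as whole numbers, and the counting of RNA-seq, its annotation and the use of strand are not given in the sources used here. FPKM (RNA-seq) and RPKM (Ribo-seq) values were deposited by the authors, scaled for gene length and library size.

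Of 54838 genes in the Ribo-seq count table, 40490 were blank in 8 of the 9 libraries and were left out, which left 14348. Symbols matched 54723 RNA-seq IDs. The 315 loci without an Ensembl ID were not matched to a symbol. Counts were tested with edgeR 4.0.16 in R 4.3.3 (quasi-likelihood, TMM scaling, filterByExpr with a minimum count of 10 and a total of 15), over the 6 libraries of a comparison, with Benjamini-Hochberg adjustment over all genes and a threshold of 0.05. TE was tested as the interaction of assay and genotype over 12 libraries. The program was tested on simulated data. No Ribo-seq library was dropped from a fit unless so stated. Alternatives were DESeq2 1.42.0, RLE scaling, no filter, a replicate block, all 9 libraries in 1 fit, protein-coding genes only, other pseudocounts and leaving out each library.

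Genes named are the 10, the targeted genes, close paralogs, the 5 most alike per assay, and up to 3 called genes with the lowest adjusted *P* per list, direction and comparison with Ctrl. Other named genes were chosen after their values were seen. Members and lists were chosen with earlier results of these data known. Promoter sequences and gene positions are from RefSeq (GRCm38.p6). Some genes that this rule names are not reported here.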

Additional observations from a re-analysis of the deposited data

Results flagged for a closer look

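Both genes called between the 2 knockouts in RNA-seq are given here because the knockouts themselves differed in the direct comparison. *Cldn5* was higher in *M*-cKO than in *F*-cKO, with a log2 fold change of 0.44 ± 0.12 (SE; edgeR adjusted *P* = 0.0217, Benjamini-Hochberg). It was called in 7 of 11 alternatives, and its call was lost without *F*-cKO replicate 2, *M*-cKO replicate 2 or *M*-cKO replicate 3 (edgeR adjusted *P* = 0.0716, 0.0536 and 0.0681). With the replicate block it was lost as well (edgeR adjusted *P* = 0.056). *Slco1c1* was lower in *M*-cKO than in *F*-cKO, with a log2 fold change of -0.63 ± 0.15 (SE; edgeR adjusted *P* = 0.0112).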

How the results depend on the processing

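Over the 80 fitted values of the 10 genes there were 1030 alternatives. In 976 a value stayed called, or stayed without a call and moved by less than a limit set from the SE of the fit. In 39 it stayed without a call but moved further. A call was lost in 5 and gained in 10, and no called value changed sign. DESeq2 gave no adjusted *P* for 23 of its 80 values, which could not be read for a call. Over all 1030 alternatives, the sign of a value that was not called changed in 58, of which 54 left out a library. The count of 2 genes called in *F*-cKO RNA-seq was the same under each alternative. In *M*-cKO RNA-seq the count was 1, and it was 3 without the filter on low counts, 2 with the replicate block (*Flt1*, -0.37, edgeR adjusted *P* = 0.0369), and between 1 and 3 when a library was left out. Between the knockouts in RNA-seq it was 2, and it was 3 without the filter, 1 with the replicate block (*Cldn5*, 0.44, edgeR adjusted *P* = 0.056) and between 1 and 3 when a library was left out. Replicate numbers paired the samples by number only, since correlations of their deviations were between -0.22 and 0.21 in RNA-seq and between -0.3 and 0.15 in Ribo-seq. In *M*-cKO Ribo-seq the count was 1, and it was 0 with all 9 libraries in 1 fit and between 1 and 2 when a library was left out. Between the knockouts in Ribo-seq it was 0, and it was 1 with DESeq2. The median TE level was 0.272 in Ctrl, and it was 0.387 with a pseudocount of 1 and between 0.239 and 0.279 when the RNA-seq and Ribo-seq libraries of 1 number were left out together, as for the TE ranges that follow. In *F*-cKO it was 0.744, and between 0.192 and 1.09, and it was 0.198 without Ribo-seq replicate 2 alone. In *M*-cKO it was 0.165, and it was 0.201 and 0.339 with pseudocounts of 0.1 and 1, and between 0.15 and 0.177. The cause of these changes was not tested, except that a pseudocount draws low levels together. A minimum level of 1 gave no value where a group mean lay below it. Low counts limit *Abcb1a*, *Pecam1* and *Tek* most in Ribo-seq.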
